A study of Mus musculus with 4 samples.

Results

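The genes described here are 34 genes that act in mitosis and on the spindle, followed on 4 two-colour Agilent expression arrays of ZHBTc4 mouse embryonic stem cells. They were taken by name: every non-control spot whose gene name, or an older form of it such as Cdc2a for Cdk1, was that of a listed cyclin, kinase, checkpoint protein, motor, kinetochore protein or chromosome protein. That gave 56 of the 43379 non-control spots of each array, and 34 of the 21411 genes that could be tested. All 34 genes were well above background in both channels on all 4 arrays. In ZHBTc4 cells both copies of Pou5f1, the gene of the pluripotency factor Oct4, are disrupted, and Oct4 comes from a transgene that doxycycline shuts off. The line is 1 clone, and it was taken off irradiated fibroblast feeders and passaged on gelatin, so feeder cells may remain. The dox+TCP group received 2 µg doxycycline for 48 h together with TCP, an abbreviation that the labels do not spell out. The dox group, titled as the control, received the doxycycline for the same 48 h without TCP. Each group had 2 biological replicates, whose RNA was in the Cy5 channel. The reference, ZHBTc4 cells with no treatment named, was in the Cy3 channel of every array, so all groups carry the disrupted Pou5f1 alleles and the transgene.

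Mitosis is run by a kinase, Cdk1, that is switched on by cyclins A and B and by the Cdc25 phosphatases. The spindle checkpoint holds cells in metaphase until every kinetochore is attached to microtubules, and Cdc20 then activates the anaphase-promoting complex, a ubiquitin ligase that destroys cyclin B and securin. Transcripts of most of these genes peak together in the G2 and M phases, through promoter elements read by the DREAM and MuvB complexes, B-Myb, FoxM1 and NF-Y, and embryonic stem cells, which divide fast, carry them at high levels. Cells losing Oct4 turn toward trophoblast, a lineage in which giant cells later copy their DNA without dividing. In a bulk RNA sample, fewer cells in mitosis and less of a transcript in each cell cannot be told apart.

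The promoters of the members were searched for both elements, because G2 and M transcription is known to run through them. RefSeq promoters of the assembly GRCm38.p6, 250 bases before to 50 after the transcript start, were found for 28 of the 34 members, in 30 promoters. The CHR-type element TTTGAA, the site of DREAM and MuvB binding, was found on either strand in 19 of the 28 genes (67.9%), against 20.2% of all 27025 genes with a promoter of that length. The CCAAT box, the site of NF-Y, was found in 22 of the 28 (78.6%), against 41.1% of all genes. Both stood in the promoters of 17 members (60.7%), against 7.97% of all genes. In the 250 bases before the start alone, the share of members with TTTGAA was 39.3% (11 of 28), against 18.3% of all genes, so in 8 of the 19 genes every match reaches past the start. A match describes the letters of the window and no binding was measured. Below are the 150 bases before the start for Cdc20, the only member that passed the test against the reference, and for Cdk1, the central kinase. The mean log2 ratio of Cdk1 was near 0 with dox (-0.04) and -0.24 with dox+TCP. Top2a and Cenpe, which lay furthest below the reference with dox, follow. Capitals mark TTTGAA (or TTCAAA, its reverse complement) and CCAAT (or ATTGG).
Cdc20 (chr4:118437344-118437493, minus strand): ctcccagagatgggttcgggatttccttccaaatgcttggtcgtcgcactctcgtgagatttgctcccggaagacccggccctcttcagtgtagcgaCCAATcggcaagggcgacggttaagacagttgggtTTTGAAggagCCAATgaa
Cdk1 (chr10:69352913-69353062, minus strand): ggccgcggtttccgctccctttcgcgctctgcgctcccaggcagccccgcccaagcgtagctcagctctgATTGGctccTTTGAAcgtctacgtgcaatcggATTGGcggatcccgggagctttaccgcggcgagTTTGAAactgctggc
Top2a (chr11:99024190-99024339, minus strand): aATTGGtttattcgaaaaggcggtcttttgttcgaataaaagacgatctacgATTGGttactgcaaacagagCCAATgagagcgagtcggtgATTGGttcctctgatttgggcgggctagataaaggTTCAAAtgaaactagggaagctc
Cenpe (chr3:135212413-135212562, plus strand): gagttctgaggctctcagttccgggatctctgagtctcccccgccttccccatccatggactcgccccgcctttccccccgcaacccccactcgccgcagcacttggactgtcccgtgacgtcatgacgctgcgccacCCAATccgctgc
Cdc20 holds 1 CHR-type match and 2 CCAAT boxes in this window, Cdk1 holds 2 and 2, and Top2a holds 1 and 4. Cenpe holds 1 CCAAT box and no CHR-type match. Of the pair that lay furthest below the reference with dox, Top2a thus has a CHR-type match in this window and Cenpe has none.

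**Figure D1:**
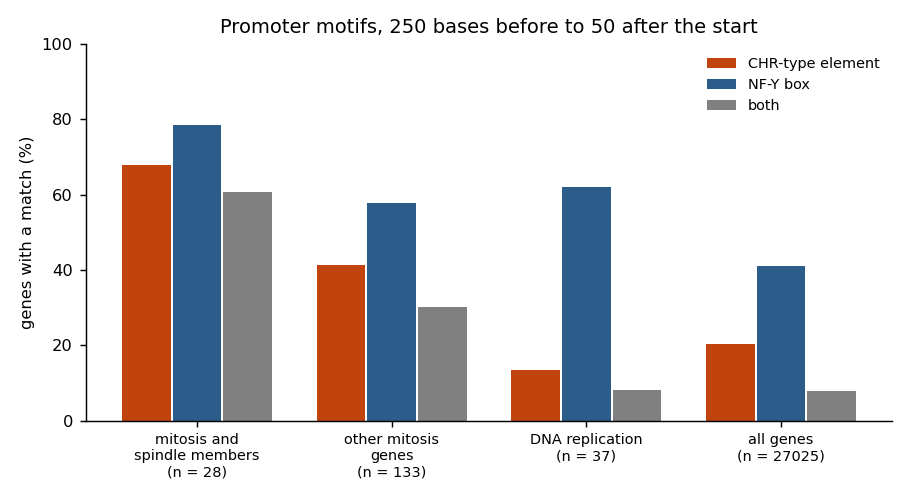
Bars give the percentage of genes (y axis) whose promoter holds a CHR-type element, an NF-Y box or both, for the 28 members with a promoter entry, other mitosis genes, DNA replication genes and all genes (x axis). The members have the tallest bars for each element: 67.9%, 78.6% and 60.7%, against 20.2%, 41.1% and 7.97% of all genes.

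The other mitosis genes looked at, 133 with a promoter entry, had both elements in 30.1% of cases. DNA replication genes, whose transcripts peak earlier in the cycle, had the CCAAT box in 62.2% of 37 genes but TTTGAA in 13.5% and both in 8.11%. Of the 11 genes with an entry among the G1 cyclins, their kinases and inhibitors, 0 held both.

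On each array 74.3% to 78.1% of spots stood well above background in Cy5 and 68.8% to 78.1% in Cy3, and 0 spots were saturated. Dox replicate 2 had more bright local backgrounds, 93 in Cy5 and 112 in Cy3, against 11 to 21 on the other arrays. Pou5f1, the gene shut off, had log2 ratios over the reference of -3.29 and -3.28 with dox+TCP and -3.38 and -3.62 with dox. Kdm1a, the demethylase named in the study's title, had log2 ratios of 0.04 with dox+TCP and 0.25 with dox and did not pass the test. Of 9 stem cell markers tested, 6 were lower than the reference with dox+TCP and 9 with dox (adjusted p under 0.05). Trophoblast markers had median log2 ratios of 1.43 and 0.18 on dox+TCP replicates 1 and 2 and 2.15 and 0.38 on dox replicates 1 and 2. None of these 10 markers passed the test in limma, and 3 with dox+TCP and 1 with dox had an unadjusted p under 0.05. With the replicate number as a block, 5 were called higher and 1 lower with dox+TCP and 6 higher with dox. The 4 giant-cell markers that could be tested ranged from 0.12 to 0.58 with dox+TCP and from -0.10 to 0.80 with dox, and 0 passed, with 1 at an unadjusted p under 0.05 in each. The median of 11 feeder fibroblast markers was 0.06 with dox+TCP and -0.01 with dox, and of these Thy1 and Twist1 were lower in both groups and Pdgfrb was higher with dox+TCP. Dox+TCP replicate 1 and dox replicate 1 lay on the same slide, and the remaining arrays lay on a slide each, with dox+TCP replicate 2 scanned on another day than the other 3, so slide and treatment can be separated within replicate 1 only. Over all genes the lowest correlation between log2 ratios of any pair of arrays was that of the dox replicates (r = 0.66, 21411 genes), against 0.86 for the dox+TCP replicates. Each dox array correlated most with the dox+TCP array of the same replicate number, at 0.88 in replicate 1 and 0.81 in replicate 2.

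The first comparison asks how the mitotic genes stood after 48 h of doxycycline, which shuts off the Oct4 transgene, with TCP and without it. Cdc20 was lower than the reference in both, and 0 of the other 33 members passed the test. In dox+TCP cells 1 of 34 members was called lower and 0 higher (limma, Benjamini-Hochberg adjusted p under 0.05), where 8.09% of all genes were called lower, 7.31% higher and 15.4% in all. In dox cells 1 was called lower and 0 higher, where 8.26% of all genes were called lower, 6.32% higher and 14.6% in all. The counts of members called are not above the share of all genes. Without adjustment 7 members had p under 0.05 with dox+TCP, where 33.2% of all genes did, and 9 with dox, where 32.8% of all genes did. Their signs leaned below 0: 24 members lay below and 10 above with dox+TCP, with a median log2 ratio of -0.29 against 0.03 for all genes, and 25 lay below and 9 above with dox, with a median of -0.28 against -0.001 for all genes. With median centring the medians turned to 0.19 with dox+TCP and 0.37 with dox, and without dox replicate 2 the dox median was -0.060. Both comparisons use the same reference. All 4 arrays gave a log2 ratio below 0 for 17 members where 26% of all genes did so, and above 0 for 2, Aurkb and Anln, where 28.2% of all genes did so.

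**Figure D2:**
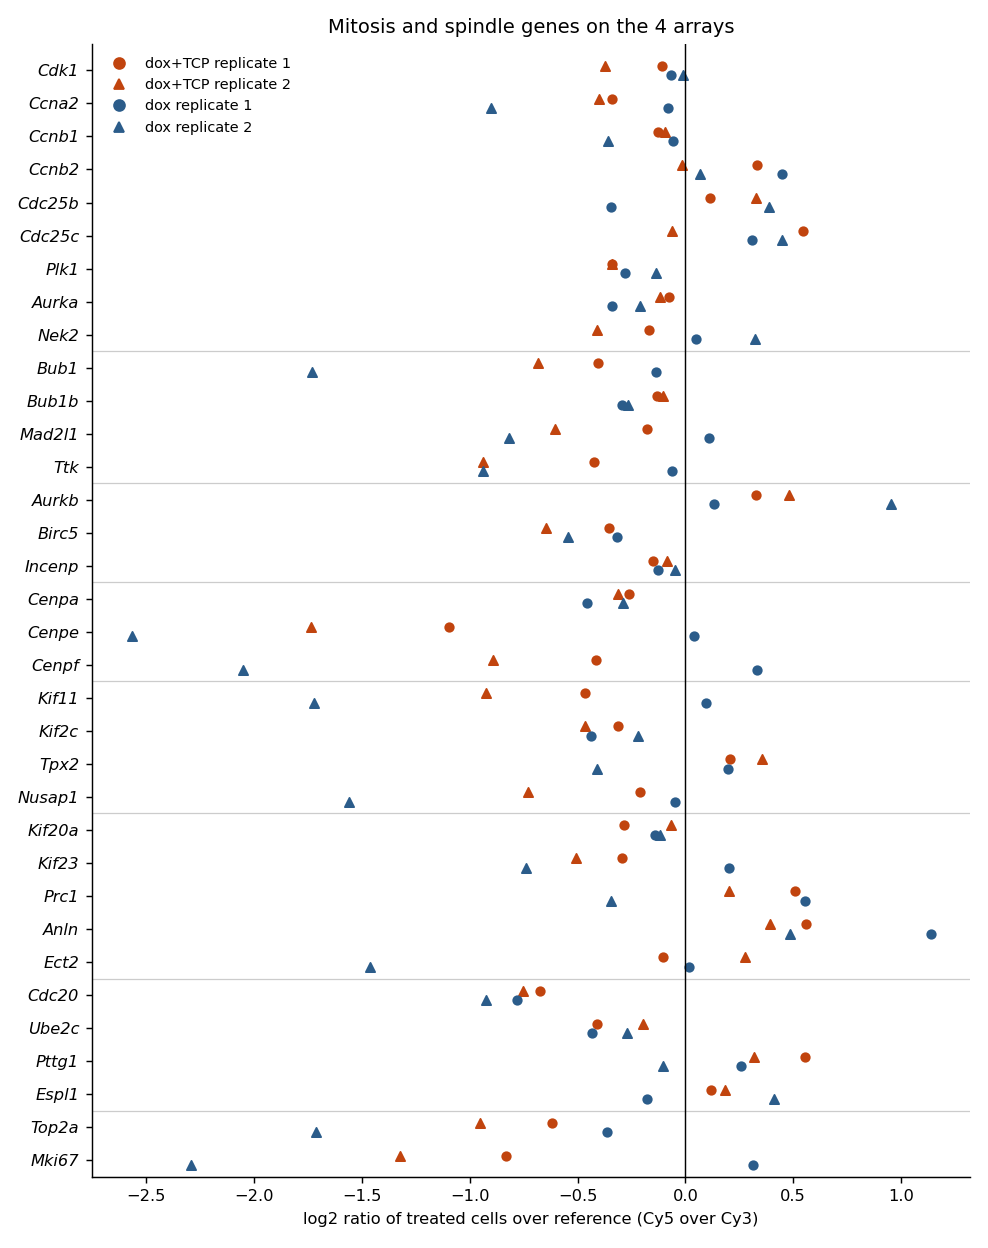
Each row is a member, grouped by role, and each point is its log2 ratio over the reference on 1 array (x axis): red for dox+TCP, blue for dox, circles for replicate 1 and triangles for replicate 2. Cdc20 has all 4 points between -0.93 and -0.68, while Cenpe, Cenpf, Kif11, Mki67 and others have the dox replicate 2 triangle far to the left of the dox replicate 1 circle.

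Among the genes of anaphase onset, Cdc20, the activator of the anaphase-promoting complex, had log2 ratios of -0.68 and -0.75 in dox+TCP cells and -0.78 and -0.93 in dox cells. All 4 values lay close together and well below 0. Both dox+TCP values of Cdc20 lay above both dox values, as for 20.2% of all genes. The difference between its groups was 0.14 and did not pass (limma adjusted p = 0.996). The mean was -0.71 ± 0.09 with dox+TCP (SE, n = 2 arrays, limma adjusted p = 0.0248) and -0.85 ± 0.09 with dox (adjusted p = 0.0205). Its probe (NM_023223, chr4:117809370-117809429 of mm7, minus strand) is annotated to that transcript. The file gives no exon or UTR for it. Both calls were lost under several settings. Without either dox+TCP array the adjusted p was 0.252 to 0.269 for dox+TCP and 0.117 for dox. With median centring Cdc20 lay at -0.051 with dox+TCP and -0.045 with dox (adjusted p = 0.787 and 0.815), and with local backgrounds as read at -0.75 with dox+TCP and -0.35 with dox (adjusted p = 0.727 and 0.573), where their difference turned to -0.40. Ube2c, the ubiquitin-conjugating enzyme of that complex, lay below 0 on all 4 arrays, at -0.41 and -0.20 with dox+TCP and -0.44 and -0.27 with dox, and did not pass the test. Pttg1, securin, the inhibitor of separase, had log2 ratios of 0.56 and 0.32 with dox+TCP, both above the 0.26 and -0.11 with dox. Espl1, separase itself, had means of 0.15 with dox+TCP and 0.12 with dox. The 4 genes of this step therefore did not share a direction.

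The 9 genes of mitotic entry had mean log2 ratios from -0.37 to 0.24 with dox+TCP and from -0.49 to 0.38 with dox. Cdk1, the mitotic kinase, had log2 ratios of -0.11 and -0.37 with dox+TCP and -0.07 and -0.01 with dox. All 4 were below 0, and both dox values were within 0.07 of it. Ccnb1, cyclin B1, had -0.13 and -0.10 with dox+TCP and -0.06 and -0.36 with dox on its brightest probe. Its other 2 probes gave -1.27 and -1.002 on dox replicate 2 and 0.23 and 0.14 on dox replicate 1, so the probes of this gene disagree on that array. Ccna2, cyclin A2, lay below 0 on all arrays, at -0.34 and -0.40 with dox+TCP and -0.08 and -0.90 with dox. Ccnb2, cyclin B2, lay at 0.33 and -0.01 with dox+TCP and 0.45 and 0.07 with dox. The phosphatase genes Cdc25b and Cdc25c, which remove the inhibitory phosphates from Cdk1, had means of 0.22 and 0.24 with dox+TCP and 0.02 and 0.38 with dox. Plk1, a kinase of spindle formation and mitotic entry, had -0.34 and -0.34 with dox+TCP and -0.28 and -0.14 with dox, and Aurka, the centrosome kinase, had -0.08 and -0.12 with dox+TCP and -0.34 and -0.21 with dox. None of these 9 genes, Nek2 included, passed the test in either comparison in limma, and 1 of them in each had an unadjusted p under 0.05.

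All 4 spindle checkpoint genes had means below 0 in both groups, with group medians of -0.47 with dox+TCP and -0.43 with dox, and 0 passed the test. Bub1, the kinase that gathers checkpoint proteins at kinetochores, had log2 ratios of -0.41 and -0.69 with dox+TCP and -0.14 and -1.73 with dox. Bub1b, BubR1, a subunit of the inhibitor of Cdc20, varied far less: -0.13 and -0.11 with dox+TCP and -0.30 and -0.27 with dox. Mad2l1, the Mad2 subunit of that inhibitor, lay at -0.18 and -0.61 with dox+TCP and 0.11 and -0.82 with dox. Ttk, the kinase Mps1, lay at -0.42 and -0.94 with dox+TCP and -0.06 and -0.94 with dox. For Bub1, Mad2l1 and Ttk the replicate 2 array was the lower one in both groups.

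The 3 genes of the chromosomal passenger complex, which corrects wrong attachments and later directs cytokinesis, went different ways. Aurkb, its kinase, lay above 0 on every array, at 0.33 and 0.48 with dox+TCP and 0.13 and 0.95 with dox, and had a mean of 0.40 ± 0.23 with dox+TCP and 0.54 ± 0.23 with dox (SE, n = 2 arrays). Birc5, survivin, lay below 0 on every array, at -0.35 and -0.65 with dox+TCP and -0.32 and -0.55 with dox. Incenp, the scaffold, lay at -0.15 and -0.08 with dox+TCP and -0.13 and -0.05 with dox. None passed the test (adjusted p for Aurkb 0.311 with dox+TCP and 0.205 with dox).

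Of the centromere and kinetochore members, Cenpa, the histone variant that marks centromeres, was steady at -0.26 and -0.31 with dox+TCP and -0.46 and -0.29 with dox. Cenpe, a kinesin that moves chromosomes to the spindle equator, lay at -1.10 and -1.74 with dox+TCP and at 0.04 and -2.57 with dox. Its dox values lie on either side of both dox+TCP values. The mean was -1.42 ± 0.69 with dox+TCP and -1.26 ± 0.69 with dox (SE, n = 2 arrays), with adjusted p of 0.259 and 0.311. Cenpf, a kinetochore protein that builds up in G2, lay at -0.41 and -0.89 with dox+TCP and 0.33 and -2.05 with dox. With the dox+TCP arrays fitted alone, Cenpe passed the test (adjusted p = 0.0205).

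Kif11, the motor that pushes spindle poles apart, lay at -0.47 and -0.93 with dox+TCP and 0.09 and -1.73 with dox. Nusap1, which binds and stabilizes spindle microtubules, lay at -0.21 and -0.73 with dox+TCP and -0.05 and -1.56 with dox. Both again had their lowest value on dox replicate 2. Kif2c, a kinesin that takes microtubules apart, was steadier, at -0.31 and -0.47 with dox+TCP and -0.44 and -0.22 with dox. Tpx2, the activator of Aurka, lay at 0.21 and 0.35 with dox+TCP and 0.20 and -0.41 with dox.

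Among the genes of the central spindle and cytokinesis was Anln, anillin, the scaffold of the contractile ring. Its mean was the highest of the members in both groups. Its log2 ratios were 0.56 and 0.39 with dox+TCP and 1.14 and 0.48 with dox. All 4 values were above 0. The mean was 0.48 ± 0.19 with dox+TCP (SE, n = 2 arrays, adjusted p = 0.186) and 0.81 ± 0.19 with dox (adjusted p = 0.072), so neither passed. With the scanner's own log ratios in place of the values used here, Anln passed with dox (0.99, adjusted p = 0.0336). Its dimmer second probe gave 0.13 and 0.34 with dox+TCP and 0.34 and -0.25 with dox. Kif20a, a motor that carries the passenger complex, lay at -0.28 and -0.07 with dox+TCP and -0.14 and -0.12 with dox. Kif23, a subunit of the centralspindlin complex, lay at -0.30 and -0.51 with dox+TCP and 0.20 and -0.74 with dox. Prc1, which bundles the central spindle, lay at 0.51 and 0.20 with dox+TCP and 0.55 and -0.34 with dox. Ect2, the exchange factor that activates RhoA at the cleavage site, lay at -0.11 and 0.28 with dox+TCP and 0.02 and -1.47 with dox. Only the dox replicate 2 value of Ect2 stood far from 0.

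The chromosome members had the lowest group medians with dox. Top2a, the topoisomerase that untangles sister chromatids, lay at -0.62 and -0.95 with dox+TCP and -0.36 and -1.71 with dox. Its values were below 0 on every array, and the mean was -0.79 ± 0.37 with dox+TCP (adjusted p = 0.239) and -1.04 ± 0.37 with dox (SE, n = 2 arrays, adjusted p = 0.152). Mki67, which coats mitotic chromosomes and is the usual marker of dividing cells, lay at -0.83 and -1.32 with dox+TCP and 0.31 and -2.29 with dox. The dox values of Mki67 were thus 2.61 apart, and the dox+TCP values 0.49 apart.

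The dox replicates thus differed for many members. On dox replicate 2, 8 of the 34 members (23.5%) lay more than 1 below dox replicate 1 on the log2 scale, a limit chosen after the values were seen, where 7.69% of all genes did so. They were Bub1, Cenpe, Cenpf, Kif11, Nusap1, Ect2, Top2a and Mki67. Of the other 26 members, Aurkb, Cdc25b and Espl1 lay higher on dox replicate 2 by 0.82, 0.74 and 0.59. Across the 34 members the ratios of the dox replicates correlated at r = 0.05 (Spearman's rho 0.01), and those of the dox+TCP replicates at r = 0.87 (rho 0.89). Between the groups they correlated at r = 0.51 for the replicate 1 arrays and 0.80 for the replicate 2 arrays. The members' replicate 2 minus replicate 1 differences correlated at r = 0.58 between dox and dox+TCP. Members share arrays and are not independent.

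**Figure D3:**
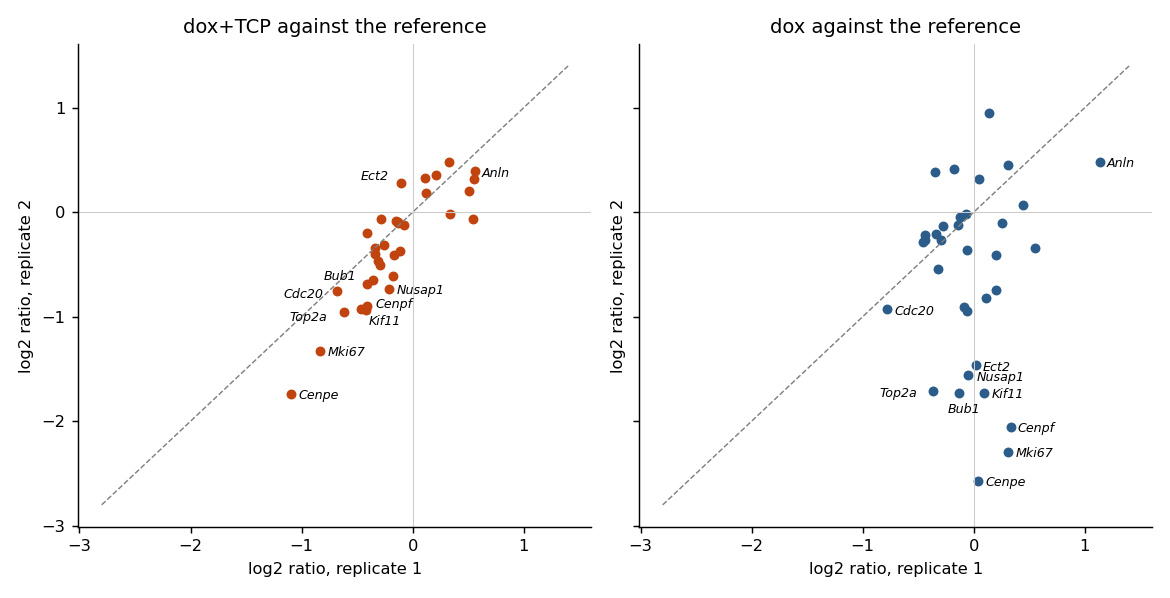
Each point is 1 of the 34 members, with its log2 ratio over the reference on replicate 1 (x axis) and on replicate 2 (y axis), for dox+TCP on the left and dox on the right; the dashed line marks equal values. The dox+TCP points follow the line (r = 0.87), whereas 8 dox points hang more than 1 below it.

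Channel levels, which are normalized log2 intensities, show the treated cells and the reference apart. Mki67 had Cy5 levels of 13.35 and 12.35 on the dox+TCP arrays and 14.43 and 11.79 on the dox arrays, while its reference Cy3 levels were 14.18 and 13.68 beside dox+TCP and 14.12 and 14.09 beside dox. For Cenpe the Cy5 levels were 13.25 and 12.83 with dox+TCP and 14.36 and 11.75 with dox, with Cy3 levels of 14.35 and 14.56 beside dox+TCP and 14.32 and 14.32 beside dox. For these genes the treated cells of dox replicate 2 gave less signal, and the reference on that array was within 0.03 of that beside dox replicate 1. For Top2a the reference also differed, at 11.60 beside dox replicate 2 and 12.23 beside dox replicate 1. A log2 ratio is the Cy5 level minus the Cy3 level, so its difference between arrays correlates by construction with that of the more variable channel. Over the members, the difference between dox replicates correlated with that in Cy5 at r = 0.97 (rho 0.95, 34 members) and with that in Cy3 at r = 0.17 (rho 0.16). The members' median difference, dox replicate 2 minus replicate 1, was -0.18 in Cy5 and -0.16 in Cy3. Cdc20, in contrast, had Cy5 levels of 15.34 and 15.11 with dox+TCP and 15.23 and 15.15 with dox, and Cy3 levels from 15.86 to 16.08.

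**Figure D4:**
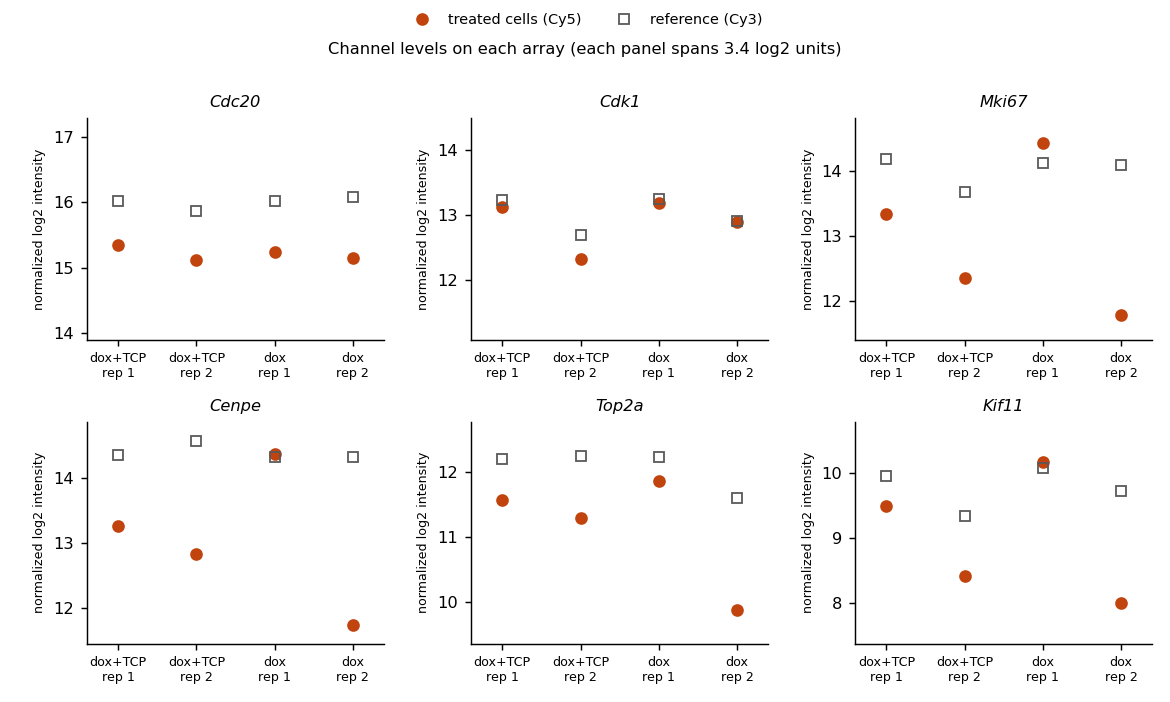
Panels show the normalized log2 intensity (y axis) of 6 members on each array (x axis), with filled circles for treated cells in Cy5 and open squares for the reference in Cy3. For Mki67, Cenpe, Top2a and Kif11 the circle of dox replicate 2 is the lowest of the 4, while the circles of Cdc20 span 15.11 to 15.34.

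Where a gene had several probes, they did not all show the drop on dox replicate 2 to the same degree. Cenpe gave -2.57, -1.62 and -0.26 on its 3 probes, from the brightest to the dimmest, and Mki67 gave -2.29 and -1.52. The dimmer probes of Top2a gave -1.29 and 0.04 on that array, those of Kif11 -0.67 and -0.15, that of Cenpf -1.31 and that of Ect2 -0.06. The second probes of Mad2l1 (-0.80) and Kif23 (-0.64) lay close to the brightest ones. On dox replicate 2 probes lying upstream in a gene also tended to higher ratios than the probe nearest the 3′ end. The median of that difference was 0.02 and 0.01 on the dox+TCP arrays and 0.01 and 0.13 on dox replicates 1 and 2, over 5745 genes with probes at least 500 bases apart. Over 14 members it was 0.02 and -0.04 on the dox+TCP arrays and 0.02 and 0.18 on the dox arrays. Some upstream probes of members were dim. Mean Cy5 signals on dox replicate 2 were 106 for a Cenpe probe, 112 for a Top2a probe and 84 and 86 for Kif11 probes. The median of all spots there was 213. Position and brightness were not separated in this comparison. Labelling started from an oligo-dT primer. The part of RNA quality in the members' values was not tested.

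Leaving out a dox array changed which members were called. With dox replicate 2 as the only dox array, 11 members were lower than the reference (Ccna2, Bub1, Cenpe, Cenpf, Kif11, Nusap1, Kif23, Ect2, Cdc20, Top2a and Mki67) and Aurkb was higher, where 12.8% of all genes were lower and 6.42% higher. With dox replicate 1 as the only one, where 5.52% of all genes were lower and 4.17% higher, Cdc20 was lower (-0.78, adjusted p = 0.0491) and Anln higher (1.14, adjusted p = 0.0397). In these fits the spread comes from the dox+TCP pair, and the lone dox array is assumed to vary like it. The same pair fitted alone gave 6 members below the reference with dox+TCP, namely Bub1, Cenpe, Kif11, Cdc20, Top2a and Mki67, and Anln above it, where 14.9% of all genes were lower and 12.8% higher.

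The second comparison asks whether TCP changed the mitotic genes on top of doxycycline. Dox+TCP against dox, 0 of 34 members and 0 of 21411 genes passed the test (0%; limma, adjusted p under 0.05), and 0 members and 946 of all genes (4.42%) had an unadjusted p under 0.05. The median log2 difference of the members was 0.04, as was that of all genes, with 18 members above 0 and 16 below. On the slide that held both groups, the median difference was -0.07 in replicate 1, against 0.13 in replicate 2, whose arrays lay on separate slides. The sign of the median thus changed between replicates, and without dox replicate 2 it was -0.12. The typical standard error of a difference was 0.16 over all genes. Cenpe, Mki67 and Cenpf had standard errors of 0.98, 0.97 and 0.89 for this difference, so only very large effects of TCP could have passed for them. Members with smaller errors did not pass either: Nek2 differed by -0.47 with a standard error of 0.17 (limma adjusted p = 0.996). The lack of calls thus does not show that TCP left the members unchanged.

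Both dox+TCP arrays lay below both dox arrays for 3 members, Cdk1, Plk1 and Nek2 (12.9% of all genes did so), and above them for 5, Aurka, Bub1b, Tpx2, Cdc20 and Pttg1 (20.2% of all genes did so). Nek2, a kinase that separates the centrosomes, had log2 ratios of -0.17 and -0.41 with dox+TCP and 0.05 and 0.32 with dox. With loess the groups lay on opposite sides of 0, and where 0 lies depends on the normalization. The difference was -0.47 ± 0.17 (SE), with adjusted p = 0.996. Its probe lies at chr1:191385389-191385448 of mm7, plus strand. Ect2 had the largest difference upward, 0.81 ± 0.57, which is that of dox replicate 2: within replicate 1 it was -0.12. Bub1 followed with 0.39 ± 0.60, with -0.27 within replicate 1. Anln differed by -0.33 ± 0.27, with dox+TCP below dox in both replicates. Incenp and Espl1 differed least, by -0.03 ± 0.11 and 0.03 ± 0.24.

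The reference channel was also compared between replicate numbers, since the labels do not say whether 1 RNA was used throughout. The members' Cy3 levels differed by a median of -0.17 on the replicate 2 arrays relative to the replicate 1 arrays, and 7 of 34 members were brighter there. Bub1 and Ect2 had the largest such differences, -0.68 and -0.66. Over all genes the median of that difference was 0.06. The 10 trophoblast markers were brighter in the replicate 2 reference by a median of 1.28, for 9 of 10 markers. Their Cy3 levels had a median of 9.78 and 10.21 beside dox+TCP replicates 1 and 2 and 9.57 and 10.95 beside dox replicates 1 and 2. A ratio over the reference on a replicate 2 array is thus taken over other Cy3 levels of these markers than on a replicate 1 array. The replicate numbers lie on different slides, so a difference in the reference cells cannot be told apart from one between slides. The part of this in the members' ratios was not tested.

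The members are bright genes, from the 57.9th to the 98.8th percentile of brightness, and the normalization sets their level relative to the rest. Loess centres genes of each brightness on 0, while centring each array on the median of its spots leaves bright genes above 0. With median centring the median of all genes was 0.18 on the log2 scale in both groups, and the members' median was 0.19 with dox+TCP and 0.37 with dox. Then 0 members were called lower, and 3 with dox+TCP (Ccnb2, Tpx2 and Pttg1) and 9 with dox were called higher. Of all genes, 5.17% were then called lower and 18.7% higher with dox+TCP, and 5.31% lower and 22.8% higher with dox, so more genes were called higher throughout. Set against the 3074 genes of like brightness, however, the members' median lay below on every array under both methods. Genes of like brightness shift together between the methods, so the second method is no independent check of this gap. With loess the members lay below those genes by 0.17 and 0.28 on the dox+TCP arrays and by 0.03 and 0.21 on the dox arrays, and with median centring by 0.12 and 0.21 on the dox+TCP arrays and by 0.02 and 0.20 on the dox arrays. For Cdc20, 279 genes within 0.5 of its brightness had medians of 0.71 and 0.62 on the dox+TCP arrays and 0.63 and 0.91 on the dox arrays under median centring, where Cdc20 lay at 0.004 and -0.11 with dox+TCP and -0.16 and 0.07 with dox. Cdc20 thus lay below genes of its brightness on all 4 arrays under both methods, a gap that the choice between them could hardly change. It was called below the reference under loess and not under median centring.

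**Figure D5:**
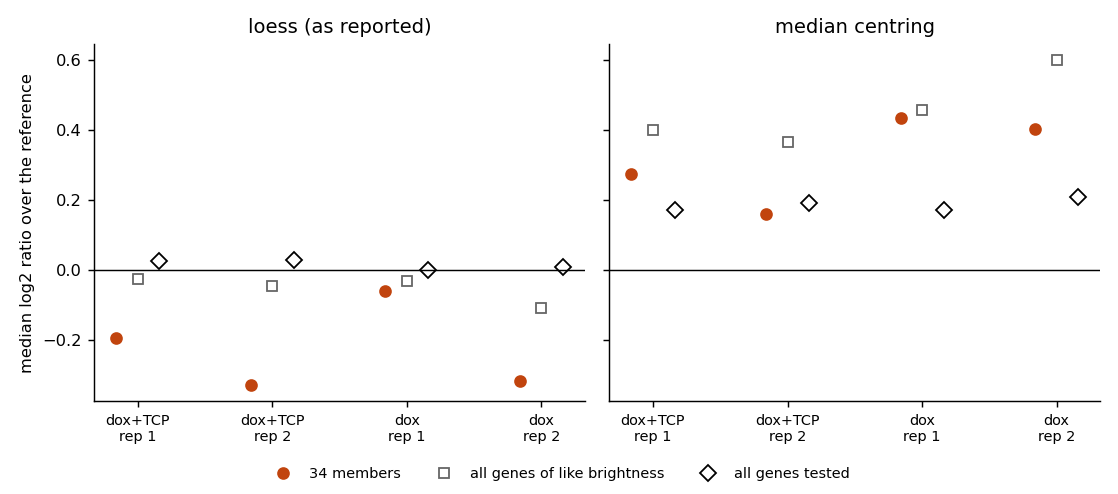
Points are median log2 ratios over the reference (y axis) on each array (x axis) for the 34 members, for 3074 genes of like brightness and for all 21411 genes tested, with loess on the left and median centring on the right. All members' medians are below 0 with loess and above 0 with median centring, and below those of genes of like brightness in both panels.

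The rest of the mitotic machinery was read from 5 lists with 157 genes tested. Of these, 6 were higher and 8 lower than the reference with dox+TCP, and 7 were higher and 9 lower with dox, with median log2 ratios of -0.19 and -0.20. Of all genes, 7.31% were higher and 8.09% lower with dox+TCP, and 6.32% were higher and 8.26% lower with dox. With median centring 23 were higher and 2 lower with dox+TCP (median 0.21), where 18.7% of all genes were higher and 5.17% lower. With dox 38 were then higher and 3 lower (median 0.33), where 22.8% of all genes were higher and 5.31% lower. More genes were thus called higher throughout, and not these lists alone. With dox replicate 2 as the only dox array, the median of the 157 genes with dox was -0.37. The values that follow are mean log2 ratios over the reference. Among kinetochore genes, Mad1l1, the Mad1 anchor of Mad2, fell to -0.84 with dox+TCP and -0.71 with dox, Spc24, an Ndc80 complex subunit, fell to -0.58 with dox+TCP, and Dsn1, a Mis12 complex subunit, rose to 0.66 with dox+TCP and 0.92 with dox. In the condensin and cohesin list, Cdca5, sororin, which holds sister chromatids together, fell to -0.87 with dox+TCP and -0.83 with dox, and Esco2, a cohesin acetyltransferase, fell to -1.29 with dox. Of that list 13 of 21 genes (61.9%) lay more than 1 lower on dox replicate 2 than on dox replicate 1, against 8 of 34 members (23.5%). In the anaphase-promoting complex, Cdc16, a subunit, rose to 0.85 with dox+TCP and 0.86 with dox, and Ube2s, which extends ubiquitin chains, fell to -0.53 with dox+TCP and -0.69 with dox. Fzr1, Cdh1, the activator that follows Cdc20, fell to -0.56 with dox+TCP, and its mean with dox was -0.29.

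Of the other spindle and cytokinesis genes, Tacc1, a centrosome protein, rose to 0.85 with dox+TCP and 1.05 with dox, and Cep55, needed for the final cut between daughter cells, fell to -1.76 with dox and had a mean of -1.18 with dox+TCP that did not pass. Cit, citron kinase of the midbody, and Numa1, which focuses spindle poles, rose to 0.83 and 0.43 with dox. Kif3a, a transport and cilium kinesin, rose to 0.97 with dox+TCP. Among the regulators of entry and transcription, Ensa, an inhibitor of the phosphatase that opposes Cdk1, fell to -1.70 with dox+TCP and -1.38 with dox. E2f4, a subunit of DREAM, fell to -1.03 with dox+TCP and -0.91 with dox, Mybl2, B-Myb, fell to -0.71 with dox, and Foxm1 fell to -0.52 with dox+TCP. Wee1, the kinase that inhibits Cdk1, rose to 0.81 with dox and had a mean of 0.25 with dox+TCP. Nek9, a kinase acting on the centrosome, rose to 0.69 with dox+TCP and 0.63 with dox, and Lin52, of the MuvB core, rose to 0.65 with dox+TCP. No difference between dox+TCP and dox passed for any of these genes in limma, and 6 of the 157 had an unadjusted p under 0.05.

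Several genes of earlier cell cycle phases passed the test. Of 45 DNA replication genes, 15 were lower than the reference with dox+TCP and 9 with dox, 0 were higher in either, and the medians were -0.57 and -0.46. Mcm2, a helicase subunit, fell to -0.69 with dox+TCP and -0.62 with dox, and Lig1, the replicative ligase, Rfc5, a clamp loader subunit, and Pole, a polymerase, also fell in both groups. Under median centring their medians were -0.14 with dox+TCP and 0.18 with dox, with 2 genes called lower and 2 higher with dox+TCP and 0 lower and 4 higher with dox, so these calls too depend on the normalization. Of 16 G1 genes, Ccnd1, cyclin D1, fell to -1.74 with dox+TCP and -2.13 with dox, its kinase Cdk6 to -1.94 and -2.20, and Ccne1, cyclin E1, to -1.11 and -0.78. The kinase inhibitor Cdkn1a, p21, had log2 ratios of 1.91 and 1.69 with dox+TCP and 0.99 and 1.06 with dox, and Cdkn1b, p27, rose to 0.59 with dox+TCP and 0.51 with dox. Both dox+TCP values of Cdkn1a lay above both dox values, as for 20.2% of all genes. Their difference of 0.78 ± 0.13 (SE) did not pass (limma adjusted p = 0.996). Whether the members differ from these lists was not tested.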

How the data were processed

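RNA of ZHBTc4 cells was measured on 4 arrays of design 014868 after labelling with an oligo-dT primer (labels' protocols). The deposited intensities of spots and their local backgrounds are linear and come from Agilent Feature Extraction 10.1.1.1, with the mm7 (NCBI35) annotation, per the file headers. That software also wrote log10 ratios of Cy5 over Cy3 after subtracting background and normalizing the dyes, per the file headers, and the values of the authors' series matrix lie within 0.005 of them. No other upstream step is known from the sources.

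Mean signals were corrected with normexp (offset 50) in limma 3.58.1 (R 4.3.3). Local backgrounds above 2 times their array's median were first set to it. Loess followed, with the 1639 control spots at weight 0 and outlier spots left out. Probes had to stand well above background in Cy5 on both arrays of either group, or in Cy3 on all 4. A gene took its brightest such probe (31114 probes, 21411 genes). The log2 ratios, computed here from the deposited intensities, were fitted with lmFit and eBayes over the 4 arrays (2 residual and 1.79 prior degrees of freedom) and adjusted by Benjamini-Hochberg at 0.05. The reference counts as 1 control sample, so its own spread is left out. Dyes were not swapped, so a gene's dye bias stays in ratios over the reference but drops out of dox+TCP against dox. The number of arrays limits the precision. The scripts were tested on simulated data.

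The members, lists and tests were chosen with earlier results of these data known. All members are named, and of each other list up to 3 called genes each way, by adjusted p. With only 2 pairs, replicate numbers were not taken to pair the samples (their deviations correlated at 0.47). A random block had no estimate from 4 arrays, and slide as a fixed block left no residual degrees of freedom. Promoters are RefSeq's (GRCm38.p6), and motifs were searched on both strands. Alternatives were other backgrounds, offsets, normalizations, filters and probe rules, the replicate block, and leaving out each array.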

Additional observations from a re-analysis of the deposited data

Results flagged for a closer look

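With loess, Nek2 was the only member whose groups lay on opposite sides of the reference on every array. Its log2 ratios were -0.17 and -0.41 with dox+TCP and 0.05 and 0.32 with dox, and the difference of -0.47 had an unadjusted limma p of 0.052 and an adjusted p of 0.996. The difference was -0.22 within the slide of replicate 1 and -0.73 between the replicate 2 arrays. Groups on opposite sides of 0 fix this shared sign in advance, so it adds no support. The side of the reference depends on the normalization. With median centring Nek2 was called higher than the reference with dox (0.74, limma adjusted p = 0.0308). In 1 of the alternatives its mean with dox+TCP lay above 0, at 0.09. The share of all genes with groups on opposite sides was not counted. Both dox+TCP arrays lay below both dox arrays, on either side of 0, for 12.9% of all genes. The groups have 2 samples each, so the search for a single outlying sample within a group could not be made.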

How the results depend on the processing

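With local backgrounds as read, 0 members and 0 genes were called lower or higher in either comparison with the reference, and the members' median with dox+TCP was -0.15. With median centring, 0 members were called lower, 3 higher with dox+TCP and 9 with dox, and 5109 genes were called with dox+TCP (78.3% of them higher, against 47.5% with loess) and 6021 with dox (81.1%, against 43.4%). The members' medians then reversed, to 0.19 with dox+TCP, 0.37 with dox and -0.13 for dox+TCP against dox, and 13 members with dox+TCP and 15 with dox went from below to above 0, of which Cdk1 (0.57), Incenp (0.69) and Kif20a (0.60) were then called with dox. The cause was not tested. With the scanner's log ratios, and with the deposited series matrix, 1 member (Anln) was called higher with dox. With the dox+TCP arrays alone, 6 members were lower, 1 was higher and 5936 genes were called with dox+TCP, and with the dox arrays alone 0 members and 0 genes were called with dox. The replicate block is a fit with the replicate number as a term, chosen after seeing the data. With dox+TCP it called 3 members lower (Ttk, Birc5 and Cdc20) and 5140 genes. With dox it called 1 member lower (Cdc20), 1 higher (Anln) and 4872 genes. For dox+TCP against dox it again called 0.

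Leaving out each array in turn, with dox+TCP the members called lower ranged from 0 to 6, those called higher from 0 to 1, all genes called from 0 to 5936 and the members' median from -0.33 to -0.19. With dox the members called lower ranged from 0 to 11, those called higher from 0 to 1, all genes called from 0 to 4126 and the median from -0.32 to -0.060. For dox+TCP against dox the median ranged from -0.12, the value without dox replicate 2, to 0.18, and 0 genes were called each time. Each 0 in these ranges of calls came from leaving out a dox+TCP array. The scanner's processed Cy3 signal gave a median difference of -0.39 for the members in the reference, and TTTGAA was found in 39.3% of members in the 250 bases before the start alone. Of the members' own values under the alternatives, 1572 stayed on their side of the threshold with no change of sign larger than their error, 72 that were not called changed sign by more than it, 44 newly passed, 9 no longer passed and 3 reversed.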
